A study of Mus musculus with 5 samples.

Results

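The genes described here are 33 genes of glucose breakdown, of 15287 genes in the deposited table. They were listed by name for their place in the pathway and not for their values, though with earlier results of these data known. The list holds the glucose transporters Slc2a1 and Slc2a3, the enzymes of glycolysis with their alternative isoforms, and the PFKFB enzymes that set the main regulator of phosphofructokinase. It also holds lactate dehydrogenase, pyruvate dehydrogenase with its kinases, and the lactate exporters Slc16a1 and Slc16a3. All 33 genes were found in the table. Of these, 31 had enough counts to be tested, and Eno2 (3 UMIs in all) and Pdk4 (4 UMIs in all) had not.

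Bone marrow cells of mice aged 20 weeks, of the genotype Fgd5CreERT2/+Rosa26Tomato/+ and without treatment, were sorted and profiled with the Chromium single-cell system, which counts each captured transcript as 1 unique molecular identifier (UMI). Fgd5 is a gene expressed in hematopoietic stem cells (HSCs), and its ZsGreen reporter was the basis of the sort. Of the 5 libraries, 3 hold lineage-negative, c-kit-positive progenitors (Lin-kit+, called a, b and c), 1 holds such cells that also carried the reporter (Fgd5+), and 1 holds reporter-positive cells with the surface phenotype of HSCs (HSC-Fgd5+). The last pair are called reporter-positive, and the Lin-kit+ libraries are the progenitors they were set against. All groups carry the same alleles.

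Glycolysis splits glucose into pyruvate, and several of its steps can be run by alternative enzymes made from different genes. Hexokinases trap glucose in the cell and phosphofructokinase commits it to breakdown. Lactate dehydrogenase turns pyruvate into lactate, which leaves through the monocarboxylate transporters, whereas pyruvate dehydrogenase feeds pyruvate into the mitochondria unless its kinases (Pdk1 to Pdk4) switch it off. HSCs reside in a marrow that is poor in oxygen and are known for a reliance on glycolysis and for low mitochondrial activity.

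The Lin-kit+ libraries held 1339, 4095 and 6147 cells, and the reporter-positive libraries 793 and 519 cells, with 2166655 to 36080242 UMIs per library. Between libraries, 62 of 12830 barcodes were shared. The table marks each library by a barcode suffix and names no population, so suffixes were assigned through the number of cells that the paper gives for each. Title and source disagree in the labels of the reporter-positive samples, so which of the pair is Fgd5+ rests on cell numbers alone. Nothing states that libraries came from separate mice, so errors and p-values measure the spread between libraries only, which may be technical. HSC markers (10 genes) summed to 1799 and 1946 CPM in the reporter-positive and 67.4 to 71.7 CPM in the Lin-kit+ libraries, where CPM are UMIs of a gene per 1000000 UMIs of the library. Late neutrophil markers (12 genes) summed to 60047 to 71373 CPM in Lin-kit+ cells and to 1238 (Fgd5+) and 7.38 CPM (HSC-Fgd5+), and Malat1, a nuclear RNA, stood at 6863 to 7415 against 21111 and 29684 CPM. The part of these differences in the results below was not tested, apart from the fit without neutrophil-like cells.

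The bases before the start sites of the genes were searched for 1 short motif. The 5 letters ACGTG, searched on both strands with overlapping matches counted, are 1 form of the core to which hypoxia-inducible factors bind. Other forms of this core were not searched, so a window without a match may hold them. CACGTG, which holds the 5 letters on each strand, is the E-box bound by MYC and its partners. The 5 letters occurred in 20 of 48 windows of 250 bases before the starts of 32 of the genes (41.7%), and in 5444 of 32851 windows over all genes in the RefSeq set (16.6%; build GRCm38.p6). The sequences below show a lactate dehydrogenase and a hexokinase pair whose members moved in opposite directions between the sorted populations, and Aldoa, which fell most clearly in dividing cells. Matches are in capitals.
Ldha, chr7:46845554-46845803, + strand: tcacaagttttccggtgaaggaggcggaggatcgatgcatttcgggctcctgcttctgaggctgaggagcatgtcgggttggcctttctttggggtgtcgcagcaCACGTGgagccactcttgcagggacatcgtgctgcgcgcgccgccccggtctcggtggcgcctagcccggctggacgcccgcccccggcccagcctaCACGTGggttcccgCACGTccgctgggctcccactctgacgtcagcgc
Ldhb, chr6:142507958-142508207, - strand: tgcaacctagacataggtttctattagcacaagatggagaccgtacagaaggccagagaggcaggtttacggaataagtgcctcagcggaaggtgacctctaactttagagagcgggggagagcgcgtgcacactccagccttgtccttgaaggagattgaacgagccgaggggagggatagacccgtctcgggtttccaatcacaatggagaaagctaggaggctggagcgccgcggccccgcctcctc
Aldoa, chr7:126799255-126799504, - strand: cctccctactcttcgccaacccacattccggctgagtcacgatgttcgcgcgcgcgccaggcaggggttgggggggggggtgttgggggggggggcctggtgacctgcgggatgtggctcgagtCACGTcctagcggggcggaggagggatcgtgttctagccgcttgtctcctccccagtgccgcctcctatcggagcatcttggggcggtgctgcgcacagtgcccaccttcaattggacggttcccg
Hk1, chr10:62379909-62380158, - strand: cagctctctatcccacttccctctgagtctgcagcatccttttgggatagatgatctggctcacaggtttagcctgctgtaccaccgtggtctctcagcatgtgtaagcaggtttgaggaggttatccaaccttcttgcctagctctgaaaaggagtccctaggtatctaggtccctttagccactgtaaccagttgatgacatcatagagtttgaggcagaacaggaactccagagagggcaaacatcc
Hk2, chr6:82774455-82774704, - strand: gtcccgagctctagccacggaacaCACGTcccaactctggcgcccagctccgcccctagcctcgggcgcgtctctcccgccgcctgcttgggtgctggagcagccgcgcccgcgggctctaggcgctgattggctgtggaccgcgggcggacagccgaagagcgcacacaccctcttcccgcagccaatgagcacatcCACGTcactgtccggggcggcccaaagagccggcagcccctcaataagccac
The Ldha window held 5 matches, with 2 E-boxes among its letters, the Hk2 window 2, the Aldoa window 1, and the Ldhb and Hk1 windows held none. Further starts of Ldha and Aldoa had windows with 0 or 1 matches. Matches stood before 11 of the 17 genes that were lower in reporter-positive cells and 4 of the 10 that were higher and had a window, and both directions held genes with and without them. A match is a description of these letters and not a site.

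Glycolysis transcripts took a smaller part of the RNA of reporter-positive cells. The 33 genes together made up 0.528, 0.526 and 0.550% of all UMIs in the Lin-kit+ libraries, 0.390% in the Fgd5+ library and 0.376% in the HSC-Fgd5+ library, and 89.5% of these UMIs came from 9 genes (Gapdh, Ldha, Pkm, Aldoa, Pgam1, Gpi1, Tpi1, Eno1 and Ldhb). The groups did not overlap. In sums over sorted cells, fewer cells of a type and less RNA per cell cannot be told apart.

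Gene by gene, 11 of 31 tested members were higher and 17 were lower in the reporter-positive libraries (edgeR quasi-likelihood test with TMM scaling on UMIs summed per library, 2 against 3 libraries, Benjamini-Hochberg adjusted p under 0.05 over 11991 genes). Among all genes tested, 32.7% were higher and 30.4% were lower, so calls in either direction were common. The median log2 fold change of the members was -0.74, beside 0.07 over all genes. The split depended on the scaling. With library totals in place of TMM, a method that sets most genes to no change, the median of all genes moved to 0.60, and 12 members were higher and 10 lower. DESeq2, with its own size factors, gave 11 and 17.

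**Figure D1:**
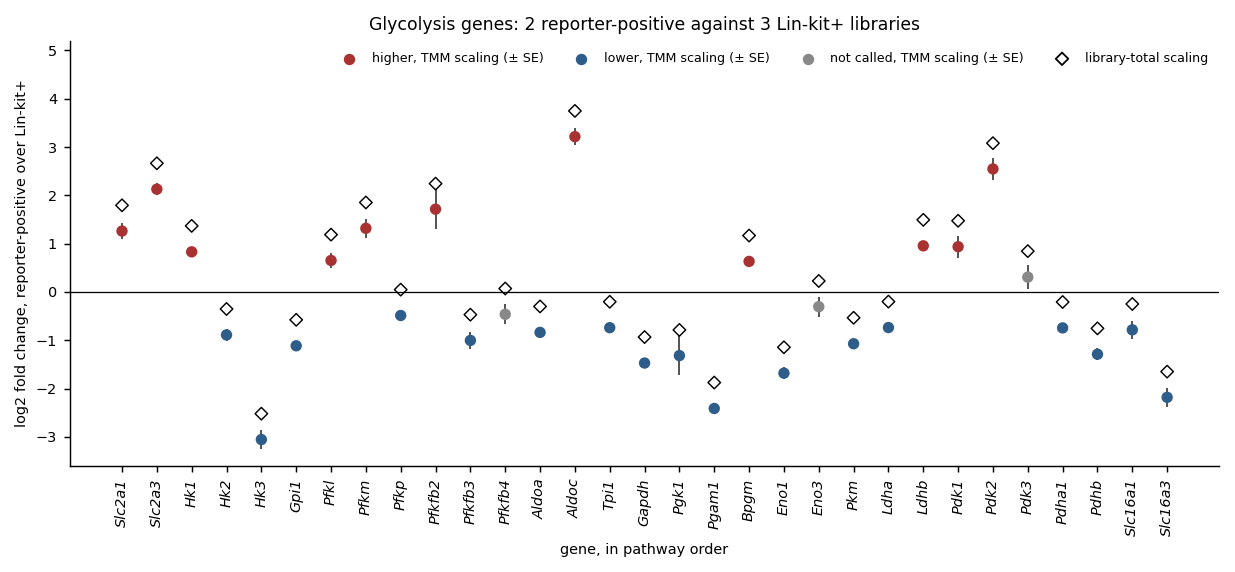
Log2 fold change of the 31 tested glycolysis genes in 2 reporter-positive over 3 Lin-kit+ libraries, in pathway order; filled points are TMM values with their standard errors, coloured by call, and diamonds the values with library totals. Aldoc (3.21), Pdk2 (2.55) and Slc2a3 (2.13) lie highest and Hk3 (-3.06), Pgam1 (-2.41) and Slc16a3 (-2.18) lowest, and library totals place each gene higher.

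Both glucose transporters were higher in reporter-positive cells. Slc2a3 (GLUT3, a transporter of high affinity) stood at 5.50, 5.89 and 5.49 CPM in Lin-kit+ and at 34.3 and 37.4 CPM in the reporter-positive libraries, a log2 fold change of 2.13 ± 0.12 (SE; edgeR adjusted p = 1.27e-05). Slc2a1 (GLUT1, the widely expressed transporter) rose from 5.10, 4.92 and 6.26 CPM to 19.0 and 19.4 CPM (log2 fold change 1.26 ± 0.17, edgeR adjusted p = 0.000536). The groups of both genes were far apart relative to their spread, with low levels in all Lin-kit+ libraries.

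The hexokinases moved in opposite directions. Hk1, the housekeeping hexokinase bound to mitochondria, rose from 31.5, 32.0 and 30.2 CPM to 78.7 and 82.6 CPM (log2 fold change 0.83 ± 0.08, edgeR adjusted p = 0.000147). Hk3, a hexokinase known from myeloid cells, fell from 53.5, 51.8 and 40.9 CPM to 7.68 and 9.69 CPM (log2 fold change -3.06 ± 0.20, edgeR adjusted p = 1.93e-05). Hk2, the inducible hexokinase, fell less, by 0.89 on the log2 scale, with 54.3, 66.3 and 65.6 CPM against 47.0 and 50.8 CPM. Markers of erythroid and megakaryocyte cells, which have high Hk1 (below), were also higher in the reporter-positive libraries: the erythroid list (15 genes, Rhd at 0) summed to 2073 and 2153 against 616 to 789 CPM and the megakaryocyte list (8 genes) to 516 and 412 against 112 to 149 CPM, and their part in the level of Hk1 was not tested. In only the HSC-like cells of the Fgd5+ and HSC-Fgd5+ libraries (classes below), Hk1 stood at 79.4 and 82.3 CPM. Gpi1, which makes fructose 6-phosphate in the next step, fell by 1.11 on the log2 scale.

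At the phosphofructokinase step the liver and muscle forms rose and the platelet form did not. Pfkl (liver form) stood at 38.6, 38.8 and 42.0 CPM in Lin-kit+ cells, at 105 CPM in Fgd5+ and at 74.8 CPM in HSC-Fgd5+ cells (log2 fold change 0.65 ± 0.15, edgeR adjusted p = 0.00658). Pfkm (muscle form) rose from 4.5, 5.83 and 4.74 CPM to 20.4 and 15.2 CPM (log2 fold change 1.32 ± 0.20). Pfkp (platelet form) stood at 30.8, 32.4 and 33.8 against 34.8 and 31.8 CPM, groups that overlap. It was called lower with TMM (log2 fold change -0.49 ± 0.10) and stood at 0.05 with library totals, so its direction changed with the scaling.

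The PFKFB enzymes make and remove fructose 2,6-bisphosphate, the strongest activator of phosphofructokinase. Pfkfb2 was sparse (61 UMIs in all) and rose from 0.40, 0.64 and 0.72 CPM to 2.40 and 4.15 CPM. Pfkfb3, the inducible form with high kinase activity, was lower with TMM (log2 fold change -1.0 ± 0.18) at 8.40, 8.30 and 8.09 against 6.48 and 5.08 CPM, a call that was lost with library totals (adjusted p = 0.0697). Pfkfb4 did not pass the test (log2 fold change -0.46 ± 0.20), and without neutrophil-like cells it stood at 0.93 and was called higher.

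Aldolase showed the largest rise of all members. Aldoc, the aldolase known from brain, stood at 1.60, 1.82 and 1.91 CPM in Lin-kit+ and at 22.8 and 26.8 CPM in reporter-positive libraries (log2 fold change 3.21 ± 0.17, edgeR adjusted p = 9.20e-06). Aldoa, the main aldolase of most tissues, fell from 481, 479 and 488 CPM to 391 and 393 CPM (log2 fold change -0.84 ± 0.06). Aldoa remained the more abundant of the pair in every library.

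From triose phosphates to pyruvate, each called enzyme was lower except Bpgm, which diverts an intermediate to 2,3-bisphosphoglycerate, the regulator of hemoglobin. Pgam1, the phosphoglycerate mutase, fell most, from 541, 546 and 570 CPM to 157 and 144 CPM (log2 fold change -2.41 ± 0.08, edgeR adjusted p = 2.33e-06). Eno1 (enolase) fell from 339, 381 and 430 CPM to 183 and 163 CPM, and Gapdh, often taken as a reference gene, from 1287, 1184 and 1189 CPM to 635 and 642 CPM (log2 fold change -1.47 ± 0.08). These groups lie well apart.

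Pkm (pyruvate kinase) stood at 648, 650 and 686 against 453 and 460 CPM, a log2 fold change of -1.07 ± 0.07. Tpi1 was lower with TMM (log2 fold change -0.74 ± 0.09), and its call was lost with library totals (-0.20, adjusted p = 0.0678). Pgk1 (phosphoglycerate kinase) stood apart in 1 library, with 40.0, 39.7 and 85.9 CPM in a, b and c against 37.7 and 25.4 CPM. Its log2 fold change of -1.32 ± 0.40 shrank to -0.83 ± 0.17 without library c and lost its call when either reporter-positive library was left out. Its near copy Pgk1-rs7 may share reads with it, as Eno1b may with Eno1. Bpgm rose from 12.4, 12.8 and 12.6 CPM to 28.5 and 28.2 CPM. Eno3, the muscle enolase, did not pass the test (log2 fold change -0.31 ± 0.21), and the UMIs of Eno2, the neuronal enolase, were all in the Fgd5+ library.

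Lactate dehydrogenase shifted toward its B subunit, which is known from heart and favours the use of lactate. Ldhb rose from 61.9, 66.6 and 74.3 CPM to 181 and 201 CPM (log2 fold change 0.95 ± 0.10, edgeR adjusted p = 0.000147). Ldha, the subunit of active glycolysis, stood at 641, 645 and 708 against 596 and 561 CPM (log2 fold change -0.74 ± 0.08 with TMM, and -0.20 with library totals). Of the exporters, Slc16a3 (MCT4, known from cells that release much lactate) fell from 12.2, 13.2 and 14.8 CPM to 3.84 and 5.08 CPM (log2 fold change -2.18 ± 0.20, edgeR adjusted p = 9.95e-05). Slc16a1 (MCT1) stood at 12.9, 15.5 and 12.0 against 10.6 and 12.5 CPM, groups that overlap, and its call (log2 fold change -0.78 ± 0.19) was lost with library totals.

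At the entry to the mitochondria the subunits of pyruvate dehydrogenase were lower and 2 of its inhibitory kinases were higher. Pdhb fell from 62.1, 67.9 and 73.6 CPM to 43.4 and 36.5 CPM (log2 fold change -1.29 ± 0.12). Pdha1 (72.8, 75.1 and 74.5 against 67.4 and 60.5 CPM) was called lower with TMM (log2 fold change -0.74 ± 0.09), a call that was lost with library totals. Pdk2 rose from 1.5, 1.77 and 1.33 CPM to 13.7 and 11.5 CPM (log2 fold change 2.55 ± 0.23, edgeR adjusted p = 8.33e-05). Pdk1, a known target of hypoxia-inducible factor, rose from 11.8, 9.31 and 7.54 CPM to 28.8 and 22.2 CPM (log2 fold change 0.94 ± 0.23). Pdk3, the most abundant kinase, stood at 41.3, 33.8 and 22.1 against 56.6 and 58.6 CPM and was called with library totals only (log2 fold change 0.84), and Pdk4 had 1 UMI in Lin-kit+ and 3 in reporter-positive cells.

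In all, 27 of 31 tested members had levels in CPM that did not overlap between the groups, 12 above and 15 below. Over all genes tested, 61.8% lay above and 20.6% below without overlap, so levels that do not overlap were common throughout. The members that were higher in the reporter-positive libraries kept their direction with library totals. This could not come out otherwise, since library totals place each tested member higher.

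Isoform choice was compared free of scaling, as the share of each isoform in the UMIs of its enzyme group, since such a ratio is taken within a library and a UMI counts a transcript whatever its length. Hk1 held 22.6, 21.3 and 22.1% of hexokinase UMIs in Lin-kit+ libraries and 59.0 and 57.7% in the reporter-positive ones, whereas Hk3 held 38.4, 34.5 and 29.9% against 5.76 and 6.77%. The leading hexokinase thus differed between the groups: Hk1 led in both reporter-positive libraries and Hk2 in each Lin-kit+ library, by under 1 percentage point over Hk3 in a. The Ldhb share was 8.80, 9.36 and 9.5% against 23.3 and 26.3%, and the Aldoc share 0.331, 0.379 and 0.390% against 5.51 and 6.37%. Lin-kit+ libraries varied little among themselves, with SDs of 0.667 percentage points for Hk1, 0.370 for Ldhb and 0.031 for Aldoc (n = 3).

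Most shares of the other groups did not overlap either. Pfkp held 41.7, 42.1 and 42.0% of phosphofructokinase UMIs against 21.7 and 26.1%, with Pfkm at 6.52% ± 0.926 (SD, n = 3) against 12.7 and 12.5%. The share of Slc2a3 among glucose transporters was 51.0% ± 3.95 (SD, n = 3) against 64.4 and 65.9%, and that of Slc16a1 among the exporters 50.1% ± 4.82 (SD, n = 3) against 73.3 and 71.1%, the last on 60 and 38 UMIs. Among PDH kinases, Pdk3 led in every library but held less in the reporter-positive ones, 74.1% ± 2.42 (SD, n = 3) against 56.9 and 63.2%. Pdk2 held 3.66% ± 0.810 (SD, n = 3) against 13.7 and 12.4%. Over the 9 groups, 21 of 24 shares did not overlap between populations. In a group of 2 genes the shares mirror each other, so 1 change counts in both. How often shares of other gene groups would not overlap was not computed, so the count of 21 is not read as a result about these genes. By CPM, a different measure, 61.8% of all genes tested lay above and 20.6% below without overlap. An exact permutation test with 2 against 3 libraries cannot go below a two-sided p of 0.2, the value the 21 shares reach, so no share could pass 0.05.

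**Figure D2:**
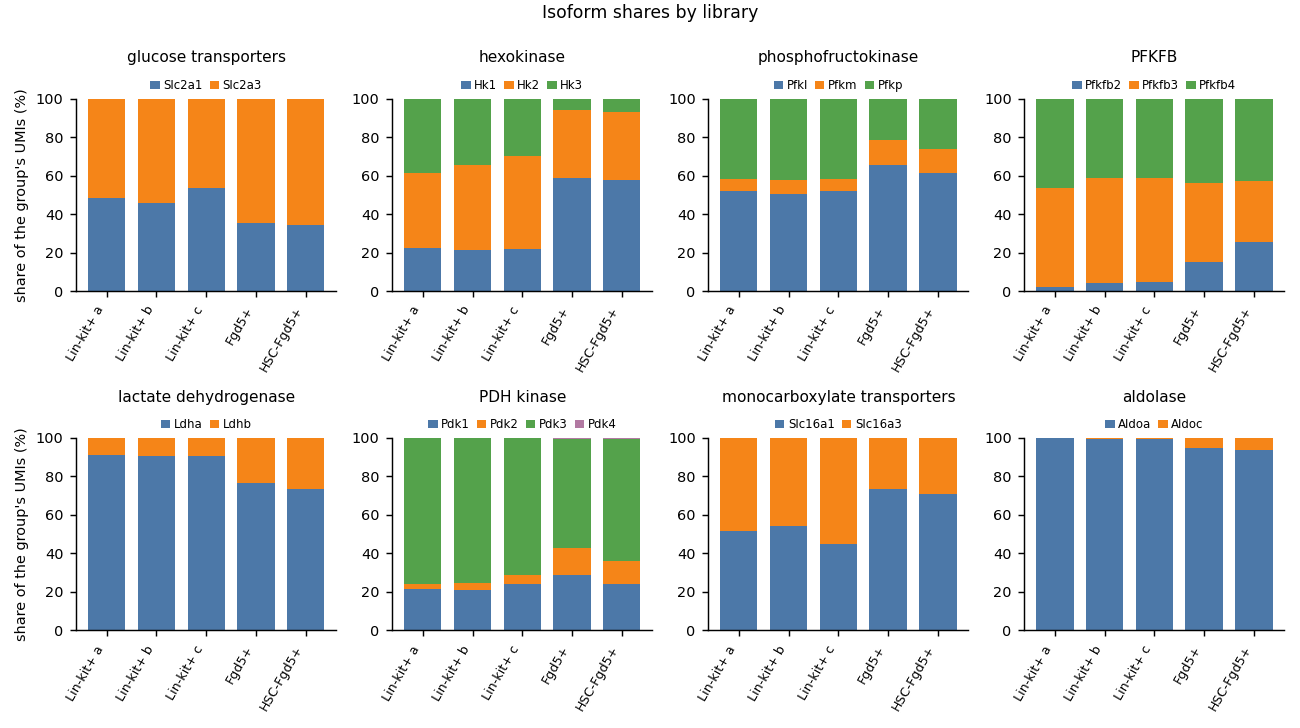
Share of each isoform in the UMIs of its group (percent, bars stacked to 100) in the 3 Lin-kit+ libraries and the Fgd5+ and HSC-Fgd5+ libraries, for 8 enzyme groups. Within each panel the Lin-kit+ bars resemble each other, and Hk1, Ldhb and Slc16a1 take larger shares in both reporter-positive bars.

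The reporter-positive libraries were close to each other. Of the 33 genes, 31 had exact 95% Poisson intervals that overlapped between Fgd5+ and HSC-Fgd5+. The other two were Pfkl (105 CPM, interval 95.2 to 115, against 74.8 CPM, 63.7 to 87.2) and Tpi1 (317 CPM, 300.3 to 335, against 273 CPM, 251 to 296). With 1 library each there is no test, and these intervals cover counting error only.

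Lin-kit+ cells are a mixture of lineages, so the members were next described by cell class. Cells were clustered on genes other than the members, and clusters were called "like" a cell type only from its markers. In each Lin-kit+ library, 9 classes had at least 20 cells, with 11417 of 11581 Lin-kit+ cells in all. One of them, with 1139 Lin-kit+ cells and led by Fkbp11 and Chdh, carried only the markers Ctsg and Mpo and stays unnamed. Of the reporter-positive cells, 778 of 793 and 512 of 519 were HSC-like, as against 29 Lin-kit+ cells. Values below are means over the 3 Lin-kit+ libraries with their SD and are a description, with no test.

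The summed level of the pathway also differed between lineages. It ran from 0.328% ± 0.0157 of UMIs in erythroid-like to 0.632% ± 0.0186 (SD, n = 3) in the unnamed cluster, with the early neutrophil-like (0.599%) and monocyte-like classes (0.589%) near the top. The HSC-like cells of the reporter-positive libraries (0.388 and 0.375%) lay beside the megakaryocyte-like (0.392% ± 0.0193) and dendritic-like cells (0.377% ± 0.0155, both SD, n = 3).

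**Figure D3:**
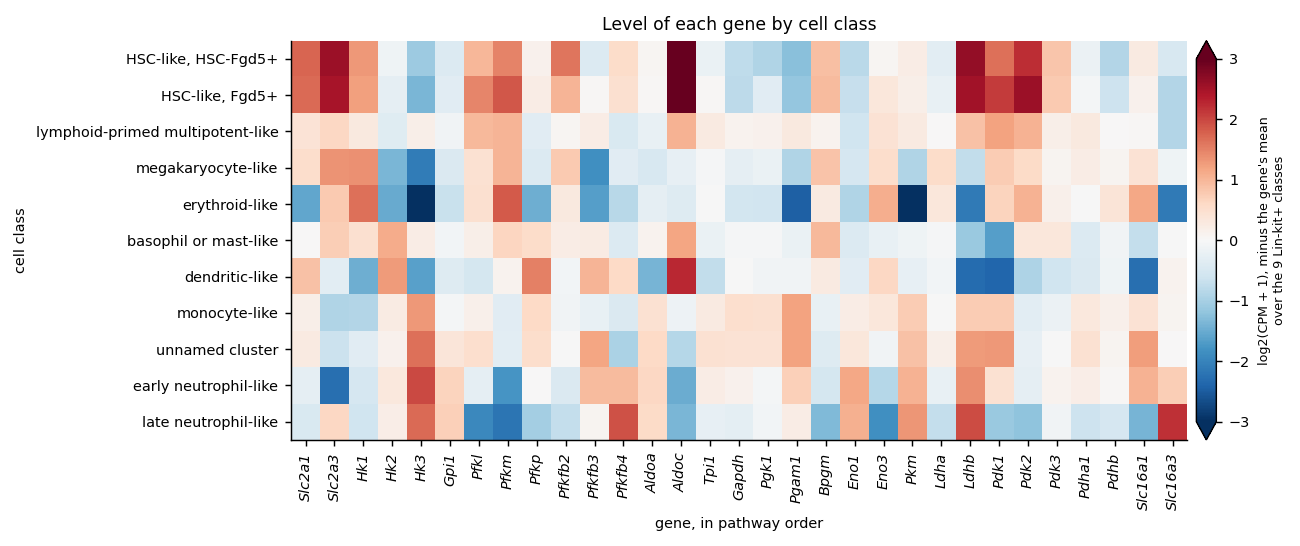
Level of 31 glycolysis genes in 9 Lin-kit+ cell classes and in HSC-like cells of the reporter-positive libraries, as log2(CPM + 1) minus the gene's mean over the 9 classes; red is higher, blue is lower, and values past 3 are drawn at 3. HSC-like rows are red for Slc2a3, Aldoc, Ldhb and Pdk2, the erythroid-like row is blue for Hk3, Pgam1 and Pkm, and the late neutrophil-like row is red for Pfkfb4, Ldhb and Slc16a3.

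Erythroid-like cells had little pyruvate kinase and phosphoglycerate mutase RNA and much Hk1. Pkm was at 49.3 ± 12.3 CPM there, below each of the other classes, which ran from 210 CPM (megakaryocyte-like) to 992 ± 25.1 CPM (late neutrophil-like; SD, n = 3). Pgam1 stood at 62.1 ± 5.22 CPM in erythroid-like cells and at 795 ± 34.3 CPM in the unnamed cluster. Hk1 was highest in erythroid-like cells (106 ± 17.6 CPM) and took 83.6% ± 7.36 of their hexokinase UMIs, and Hk3 was nearly missing (5 UMIs over 3 libraries). Pklr, the pyruvate kinase of red cells and liver, is no member, and all of its 104 UMIs lay in this class, where it made up 32.5% ± 9.37 of the pyruvate kinase UMIs.

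Neutrophil-like cells were the reverse in several steps. Late neutrophil-like cells had the highest Pkm and Slc16a3 (38.3 ± 2.26 CPM, against 0.97 ± 0.88 in erythroid-like cells), and Slc16a3 took 92.5% of their exporter UMIs. Their phosphofructokinase was low, with Pfkl at 9.03 ± 1.48 CPM and Pfkm at 0.27 CPM (5 UMIs), while Pfkfb4, a PFKFB isoform, was highest of all classes at 19.4 ± 2.84 CPM. Hk3 took 46.7% ± 3.59 of hexokinase UMIs in early and 43.8% ± 6.63 in late neutrophil-like cells, whose leading form was not separated from Hk2 (42.0% ± 4.94). Ldhb reached 124 ± 6.03 CPM in late neutrophil-like cells, the highest of the 9 classes (SD, n = 3 throughout).

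Dendritic-like cells used other isoforms again. Hk2 stood at 137 ± 56.2 CPM, highest by mean though not apart from the basophil or mast-like class, and Pfkp at 83.9 ± 16.6 CPM gave 73.2% of phosphofructokinase UMIs. Aldoa was lowest here (144 ± 28.1 CPM), and Aldoc, at 12.6 ± 4.4 CPM, was the highest of the 9 classes. Ldhb was at 5.52 ± 6.62 CPM (15 UMIs; SD, n = 3).

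Megakaryocyte-like cells had Hk1 as their leading hexokinase, as HSC-like cells did, but little Ldhb. Hk1 took 77.9% ± 2.33 of their hexokinase UMIs, beside 59.7 and 57.7% in HSC-like cells. They had the highest mean of Ldha (1020 ± 44.7 CPM), not apart from erythroid-like cells (883 ± 92.2 CPM), with Ldhb at 1.8% of lactate dehydrogenase UMIs, as against 23.7 and 26.5% in HSC-like cells. In lymphoid-primed multipotent-like cells, Hk1 held 38.6% ± 6.03, Ldhb 7.7% and Pfkl 69.0% ± 2.59 of their groups (SD, n = 3).

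Some isoforms led in all classes and others did not. Aldoa, Eno1, Ldha and Pdk3 led their groups in 9 of 9 classes. Of the hexokinases, Hk2 led by mean in 4 classes, Hk3 in 3 and Hk1 in 2, and of the phosphofructokinases Pfkl led in 5 and Pfkp in 4. Some leads were near ties. Hk2 held 39.8% and Hk1 38.6% in lymphoid-primed multipotent-like cells. Pfkl held 50.2% and Pfkp 48.7% in early neutrophil-like cells, and Pfkp 46.3% and Pfkl 44.8% in basophil or mast-like cells. Each of these leads changed when library b was left out. Over the classes, 8 members stood higher in HSC-like cells of both reporter-positive libraries than in any class of any Lin-kit+ library: Slc2a1, Slc2a3, Aldoc, Ldhb, Pdk1, Pdk2, Pdk3 and Pdk4, the last on 2 and 1 UMIs. Gapdh was the 1 member below each of them, at 630 and 640 CPM against 746 ± 25.4 CPM (SD, n = 3) in erythroid-like cells, its lowest class. Hk1 was not among the 8, since its level in erythroid-like and megakaryocyte-like cells was as high. The share of all genes above or below every class was not counted, so these counts are not read as a result about the members. By whole libraries, a different comparison, 61.8% of all genes tested lay above in CPM and 20.6% below without overlap. The 29 HSC-like Lin-kit+ cells were too few to form a class in this comparison.

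**Figure D4:**
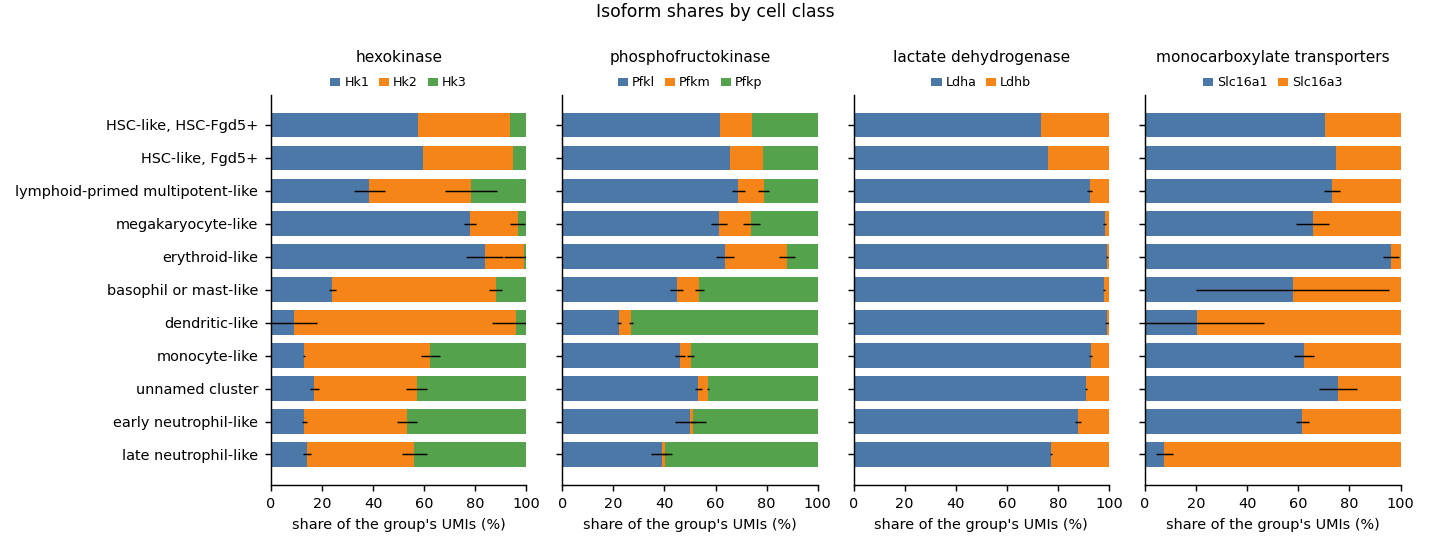
Share of isoforms in the UMIs of 4 enzyme groups (percent, bars stacked to 100) in HSC-like cells of the 2 reporter-positive libraries and in 9 Lin-kit+ classes; black lines are the SD over 3 Lin-kit+ libraries at each boundary. Hk1 fills most of the hexokinase bar in erythroid-like and megakaryocyte-like cells, and the Ldhb part is widest in HSC-like and late neutrophil-like cells.

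Glycolysis is known to rise with proliferation, so dividing and other cells were compared within each library. A cell was called dividing with at least 2 UMIs of 20 division genes after thinning to 1000 UMIs, and other with 0. There were 461, 1377 and 2235 dividing cells in the Lin-kit+ libraries (33.7 to 36.4% of cells), and 50 (Fgd5+) and 39 (HSC-Fgd5+) in the reporter-positive ones. In Lin-kit+ cells, 11 of 31 members were higher and 6 lower in dividing cells (17% and 14% of all 11365 genes tested were). In reporter-positive cells, 2 were higher and 7 lower (8.24% and 6.11% of all genes). The difference between these effects passed the test for 4 members (8.68% of all genes in either direction): Aldoa, Ldhb, Pkm and Hk3.

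Aldoa fell steeply in dividing reporter-positive cells. It stood at 156 CPM in dividing against 435 CPM in other cells of the Fgd5+ library, and at 73.0 against 460 CPM in the HSC-Fgd5+ library, a log2 fold change of -1.92 ± 0.13 (edgeR adjusted p = 1.25e-12). In the Lin-kit+ libraries, dividing cells had 450, 461 and 462 CPM and other cells 490, 484 and 490 CPM (log2 fold change -0.01 ± 0.04), and the effects differed by -1.91 ± 0.14 on the log2 scale (edgeR adjusted p = 1.77e-11). Between populations, with only cells without division UMIs, Aldoa was still lower in reporter-positive cells with TMM (log2 fold change -0.56 ± 0.07, edgeR adjusted p = 0.000288).

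In the HSC-like cells of the reporter-positive libraries the level of Aldoa was lower with each step in division UMIs. In the Fgd5+ library it was 434 CPM with 0 such UMIs, 352 with 1, 192 with 2 to 3 and 97.7 (exact 95% Poisson interval 67.6 to 136) with 4 or more, the last from 33 cells. In the HSC-Fgd5+ library it was 461, 340, 203 and 40.9 CPM (19.6 to 75.1), the last from 25 cells. Dividing cells were deeper (medians of 10003 and 7974 against 4169 and 3646 UMIs), but other HSC-like cells with at least 8000 UMIs still had 384 and 435 CPM of Aldoa.

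Aldoc and Ldhb fell as well in the dividing reporter-positive cells, and Tpi1 and Gapdh rose, and these 4 differences were smaller against other cells of like depth. Aldoc stood at 1.88 against 26.3 CPM and 3.17 against 30.5 CPM (log2 fold change -3.62 ± 0.64, edgeR adjusted p = 9.22e-05, from 1 UMI in the dividing cells of each library). Ldhb stood at 109 against 194 CPM and 146 against 208 CPM (log2 fold change -0.78 ± 0.14), and Ldha fell by 0.33 ± 0.07 on the log2 scale. Tpi1 rose by 0.31 ± 0.09 and Gapdh by 0.19 ± 0.06 on the log2 scale, but at matched depth the rise was not seen in both libraries. Among HSC-like cells of the Fgd5+ library, Tpi1 stood at 362 CPM in dividing cells and 365 CPM in other cells with at least 8000 UMIs, and Gapdh at 723 and 715 CPM. In the HSC-Fgd5+ library Tpi1 stood at 402 and 276 CPM and Gapdh at 771 and 701 CPM, with counting intervals that overlap. The falls of Aldoc and Ldhb were also smaller against these deep cells, which had 13.9 and 15.4 CPM of Aldoc (9 and 3 UMIs) and 164 and 184 CPM of Ldhb, against 116 and 149 CPM of Ldhb in dividing cells with counting intervals that overlap. Ldha stood at 756 and 711 CPM in the deep cells and at 479 and 518 CPM in dividing cells. Slc2a1 (log2 fold change -1.43 ± 0.49, adjusted p = 0.0477) and Slc2a3 (-0.91 ± 0.31, adjusted p = 0.0490) were close to the threshold. Hk3 rested on 0 and 1 UMIs in dividing cells.

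Dividing and other Lin-kit+ cells were of different lineages. Monocyte-like and late neutrophil-like cells made up 31.5 and 27.4% of dividing but 17.6 and 12.3% of other cells. Pfkfb4 (log2 fold change 0.87 ± 0.17), Slc16a3 (0.59 ± 0.12), Pfkp (0.34 ± 0.08), Pkm (0.22 ± 0.03) and Pgam1 (0.16 ± 0.03) were among the 11 that were higher, and Pfkl (-0.63 ± 0.07) and Pdk1 (-0.55 ± 0.14) among the 6 that were lower. With only monocyte-like cells in the Lin-kit+ and HSC-like cells in the reporter-positive libraries, a comparison chosen after the data were seen, edgeR called 0 of 30 members higher in dividing Lin-kit+ cells (0 at an unadjusted p under 0.05) and 5 lower: Ldha, Pdk1, Gapdh, Pfkl and Tpi1. Over the 9788 genes of that fit, 3.77% were higher and 5.2% lower, and 10.8% differed between populations in either direction. In that fit the difference between populations held for Aldoa (-2.05, adjusted p = 1.21e-13) and Ldhb (-0.94, adjusted p = 0.000151) and passed for Aldoc, Tpi1 and Gapdh. It shrank to -0.18 for Pkm (adjusted p = 0.291), whereas Hk3 kept its size (-2.85) and just missed the threshold (adjusted p = 0.0579).

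Within classes the low Aldoa of dividing cells was not particular to the reporter-positive libraries. Aldoa was lower in dividing than in other cells in each of 3 libraries in 8 of 9 Lin-kit+ classes. The ratio of the mean levels was 0.372 in dendritic-like (86.4 ± 34.5 against 232 ± 18.9 CPM), 0.480 in megakaryocyte-like (173 ± 41.9 against 361 ± 17.2 CPM), 0.576 in lymphoid-primed multipotent-like (220.1 ± 9.94 against 382 ± 3.53 CPM) and 0.640 in basophil or mast-like cells. It was close to 1 in the unnamed cluster (0.975), late (0.960) and early neutrophil-like (1.02) and monocyte-like cells (0.922), which together hold most of the dividing Lin-kit+ cells. Ldhb was lower in each library in 2 of 9 classes, the lymphoid-primed multipotent-like (39.5 ± 13.4 against 68.9 ± 10.3 CPM) and the erythroid-like, higher in each library in the monocyte-like class (55.7 ± 7.41 against 46.3 ± 10.2 CPM) and mixed in 6. These are descriptions over 3 libraries (SD, n = 3), with as few as 13 dividing cells of a class in a library.

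**Figure D5:**
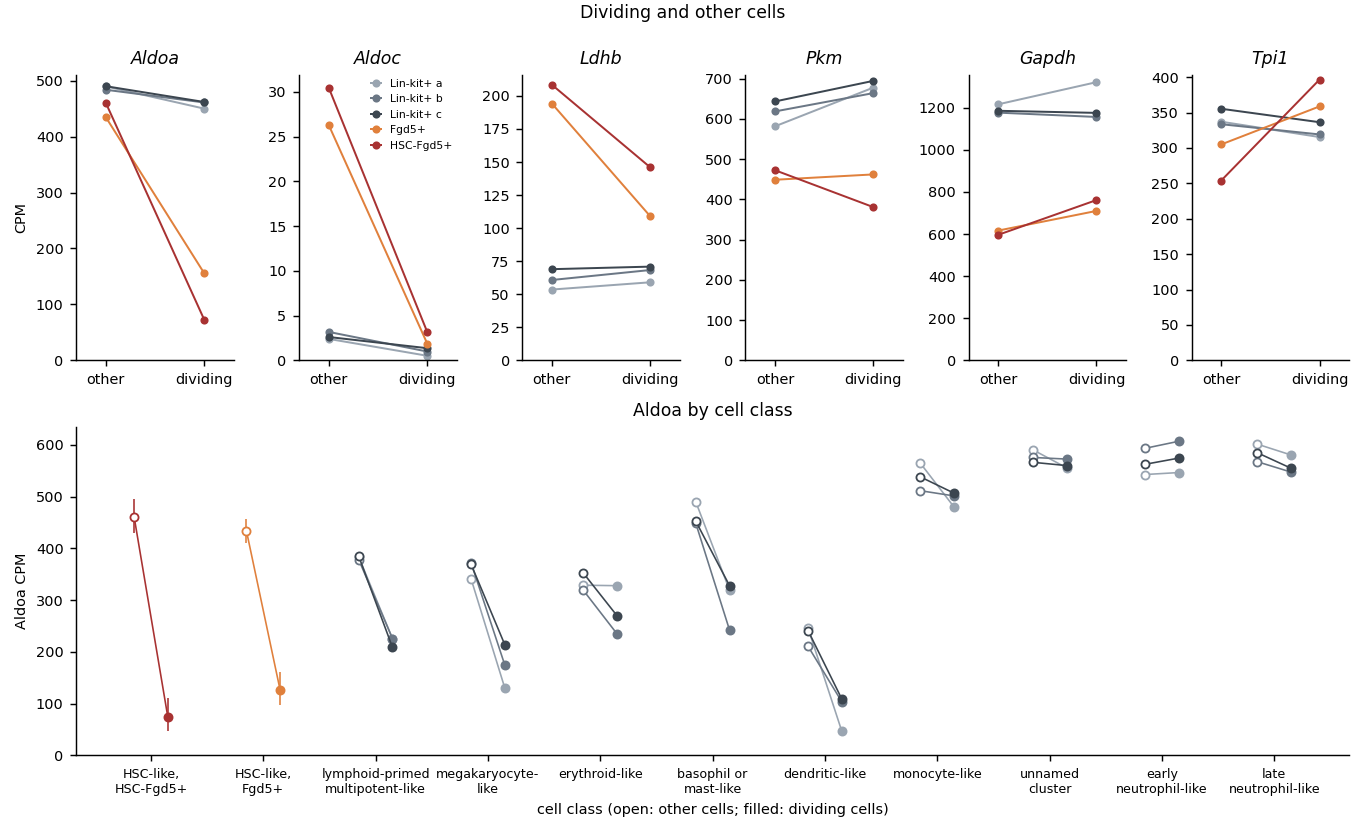
Top, CPM of 6 glycolysis genes in other and dividing cells of each library. Bottom, Aldoa CPM in other (open) and dividing cells (filled) by cell class, with 1 line per library and exact 95% Poisson intervals for the HSC-like cells of the reporter-positive libraries; dividing cells lie well below other cells in HSC-like, dendritic-like and megakaryocyte-like cells and near them in neutrophil-like and monocyte-like cells.

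Genes around the pathway were mostly lower in reporter-positive cells as well. In the pentose phosphate branch, which makes NADPH, 7 of 10 tested genes were lower and 3 did not pass, among them Pgd (170, 160 and 168 against 36.2 and 32.8 CPM; log2 fold change -2.79 ± 0.09) and Taldo1 (-2.43 ± 0.08). In the TCA cycle 17 of 20 were lower and 1 was higher (Idh3b, 0.28 ± 0.08), led by Idh1 (-2.34 ± 0.09) and Fh1 (-1.54 ± 0.08). Of 10 genes for the entry of pyruvate, 5 were lower, with Mpc1, a subunit of the mitochondrial pyruvate carrier, at a log2 fold change of -2.0 ± 0.11, and 1 was higher (Me1, a malic enzyme, named after its values were seen). Of 10 further glycolysis genes, 6 were lower and 2 higher. All of these counts are beside 30.4% lower and 32.7% higher over all genes, with TMM scaling.

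Regulators went both ways. Of 18 genes of the hypoxia pathway 4 were higher and 6 lower. Ddit4, an inhibitor of mTOR signalling that is induced by stress, rose from 4.0, 5.67 and 4.35 CPM to 21.1 and 33.2 CPM (log2 fold change 1.95 ± 0.24), and Ero1l, an oxidase of protein folding, fell by 2.18 ± 0.30 on the log2 scale. Of 12 genes that control glucose and lactate transport, 4 were higher and 4 lower. Txnip, which limits glucose uptake and is induced by glucose, rose from 45.3, 42.5 and 34.7 CPM to 426 and 536 CPM (log2 fold change 3.02 ± 0.14), the largest rise among the genes named from these lists, and its relative Arrdc4 by 2.65 ± 0.52. Emb (embigin), a partner of the lactate exporters, fell from 389, 383 and 413 CPM to 75.3 and 74.3 CPM (log2 fold change -2.94 ± 0.08).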

How the data were processed

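Libraries were made with the Chromium 3′ kit. The authors deposited raw UMI counts, as whole numbers for each gene in each cell, in 1 table with no scaling. The submitters' processing notes name Cell Ranger 1.3 and 2.1, Seurat 2.3.4 and mm10. Per-sample columns left unused numbered 0. The 5 barcode suffixes were assigned to populations through the numbers of cells the paper gives. All 12893 cells were kept. UMIs were summed per library and tested with edgeR 4.0.16 (TMM, its filter on low counts, quasi-likelihood, R 4.3.3), with DESeq2 1.42.0 and edgeR with library totals as alternatives. Dividing and other cells were tested as 10 sums with a library term. Cells were clustered with scanpy 1.11.5 and leidenalg 0.10.2 (2000 variable genes, with 119 genes including the members left out, 20 components, 15 neighbours, resolution 1). A class needed 3 markers at a fold of 2 in 5% of its cells. Scrublet called 165 doublets, which were kept, and left out in an alternative. Tests were checked on simulated data. The members, lists and thresholds were chosen with earlier results of these data known. Named genes of the further lists were the 2 called genes with the largest change each way and at least 100 UMIs. Near copies could share reads: Eno1b held 1232 UMIs beside 27133 of Eno1, and Pgk1-rs7 236 beside 4451 of Pgk1. Shares in percent are of UMIs in a group, with Wilson intervals in the tables. Depth ran from 2166655 to 36080242 UMIs per library, and at 3 UMIs a library resolves 0.0831 to 1.38 CPM. Intervals cover counting error only.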

Additional observations from a re-analysis of the deposited data

Results flagged for a closer look

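In 4 members, dividing against other cells differed between the sorted populations by a test of the difference itself (edgeR, adjusted over 11365 genes). The log2 fold change in reporter-positive minus that in Lin-kit+ cells was -1.91 for Aldoa (adjusted p = 1.77e-11), -0.96 for Ldhb (adjusted p = 1.71e-05), -0.39 for Pkm (adjusted p = 0.00202) and -3.29 for Hk3 (adjusted p = 0.0272). Both reporter-positive libraries were lower and all 3 Lin-kit+ libraries were higher in dividing cells for Ldhb and Hk3. For Aldoa all 5 libraries were lower in dividing cells by CPM, and the sizes differed. For Pkm the reporter-positive libraries went opposite ways, with 462 against 449 CPM in Fgd5+ and 381 against 472 CPM in HSC-Fgd5+. Dividing and other Lin-kit+ cells differ in their mix of classes. With 1 class per population (monocyte-like in Lin-kit+, HSC-like in reporter-positive), the difference held for Aldoa and Ldhb. It shrank to -0.18 for Pkm (edgeR adjusted p = 0.291) and stayed near its size for Hk3 (-2.85, adjusted p = 0.0579), which just missed the threshold. Of the 9 Lin-kit+ classes, only the monocyte-like had Ldhb higher in dividing cells of each library. Its ratio of dividing to other cells was 1.20 for Ldhb and 0.922 for Aldoa, against 0.573 and 0.576 in lymphoid-primed multipotent-like cells. Other classes were not tested in this way. Groups of 3 and 2 libraries were too small for a search for outlying libraries.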

How the results depend on the processing

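Between populations, all 28 calls kept their direction and side of the threshold with DESeq2, without the low-count filter, without doublets, with a filter on cells and without neutrophil-like cells, and without each Lin-kit+ library. With library totals 10 members were lower, 6 lower calls were lost (Pfkfb3, Pgk1, Pdha1, Slc16a1, Tpi1 and Ldha) and Pfkp turned to 0.048. Without neutrophil-like cells Pfkfb4 turned to 0.93 and was called. Leaving out each library in turn gave 10 to 11 higher and 15 to 17 lower, with Pdk1, Pgk1 and Slc16a1 lost without Fgd5+ and Pfkfb2 and Pgk1 without HSC-Fgd5+. Dividing Lin-kit+ cells gave 4 higher and 3 lower with DESeq2, 4 higher with library totals, 6 with at least 3 division UMIs, 0 with 1 class per population, and 5 to 11 with a library left out (7 without b and 5 without c; lower, 6 to 8). With 1 class per population, the Lin-kit+ values of Pgk1 (-0.16), Eno1 (-0.054), Tpi1 (-0.18), Gapdh (-0.12), Gpi1 (-0.049), Pkm (-0.041), Slc16a3 (-0.11), Hk3 (-0.029), Pgam1 (-0.030) and Pdk2 (0.071) turned sign. In reporter-positive cells, 1 was higher and 4 lower with DESeq2, 1 higher with 1 class, and 0 to 2 higher and 3 to 6 lower with a library left out, with Slc2a1, Slc2a3, Gapdh, Ldhb, Ldha and Hk3 lost without Fgd5+ and Slc2a1, Slc2a3, Tpi1 and Gapdh without HSC-Fgd5+, where the lone library is assumed to vary like the others. The difference between effects was positive for 1 member with DESeq2, without the filter and with 3 division UMIs, for 2 with library totals and 1 class, and for 0 to 1 with a library left out (negative, 3 to 4). Aldoa kept its reporter-positive call and its call in the difference under each of these alternatives. Isoform shares that did not overlap numbered 20 to 23 under the alternatives, with 0 reversed, but their sizes were less stable. The difference between populations moved by over 1 SD for 15 of 24 shares without neutrophil-like cells. It did so for 13 shares in cells without division UMIs, 7 with equal cell numbers and 1 with the filter on cells. Among named classes, 1 each was led by Hk1 and Hk3 at resolution 0.5, and with a library left out Hk1 led in 2 to 3, Hk2 in 3 to 6, Hk3 in 1 to 2 and Pfkp in 4 to 5. Without division UMIs Pfkp lost its call. The cause was not tested. No paired analysis was possible because the libraries carry no numbers that match across populations. Depth limits most the members under 10 CPM in each Lin-kit+ library: Slc2a1, Slc2a3, Pfkm, Pfkfb2, Pfkfb3, Pfkfb4, Aldoc, Eno2, Eno3, Pdk2 and Pdk4.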

Other observations

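Further lactate dehydrogenase genes that are no members were looked at after their values were seen. Ldhc, known as the lactate dehydrogenase of testis, had 493 UMIs in Lin-kit+ libraries (7.40, 6.58 and 8.20 CPM in a, b and c). It had 0 in the reporter-positive libraries, where 3 UMIs would be 0.720 (Fgd5+) and 1.38 CPM (HSC-Fgd5+). Late neutrophil-like cells held 68.0% of its UMIs (26.4 CPM over the pooled libraries, exact 95% Poisson interval 23.6 to 29.4). The highest level, 475 CPM (342 to 642), was in 23 eosinophil-like cells, too few for the comparison of classes. Ldhc was not among the genes left out of clustering. It was among the leading genes of the eosinophil-like cluster and of a late neutrophil-like cluster, so its levels there may not be independent of the clusters. Ldhd, a lactate dehydrogenase of the D form, went the other way, with 77 UMIs in reporter-positive libraries (12.2 and 12.0 CPM) and 15 in the much larger Lin-kit+ libraries (log2 fold change 5.12 by edgeR).

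Slc2a6, a glucose transporter of the lysosome, stood at 5.0, 4.17 and 3.94 CPM in Lin-kit+ libraries and at 0 UMIs in both reporter-positive libraries. Within the Lin-kit+ libraries, Pgk1 was high in library c (85.9 against 40.0 and 39.7 CPM) and Pdk3 low (22.1 against 41.3 and 33.8 CPM).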
